A study of Mus musculus with 2 samples.

Results

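The 9 genes described here encode CC chemokines that attract monocytes or are made by myeloid cells: Ccl2, Ccl7, Ccl8, Ccl12, Ccl3, Ccl4, Ccl6, Ccl9 and Ccl24. They were chosen by symbol from the 32285 mouse genes listed in the count matrices of a single-cell RNA sequencing experiment. The choice was made with earlier results of these data known. All 9 were detected. Each symbol had 1 row, and all 9 gene identifiers matched the mouse gene annotation. The experiment asked how an antibody against CD3L1 (the protein of ITPRIPL1) changes immune cells in osteosarcoma xenografts that grow without T cells. Human 143B osteosarcoma cells were implanted under the skin of the right flank of female nude mice aged 4 weeks, which lack a thymus and hence T cells but retain myeloid cells. The mice of the control IgG group received a human IgG1 isotype antibody at 10 mg/kg and those of the anti-CD3L1 group received anti-CD3L1 at 10 mg/kg, in both cases every 3 days for 4 doses. Tumors were dissociated, CD45-positive cells were taken with magnetic beads, and 3 tumors were pooled into 1 library per group. The 2 libraries therefore carry no replicate error. Every interval below is a 95% interval that covers the counting of unique molecular identifiers (UMIs, 1 per captured transcript) only, differences between mice are not covered, and no test between treatments was possible. Transcripts of the human tumor cells are not among the listed genes.

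Chemokines are small secreted proteins that guide leukocytes along gradients through G protein-coupled receptors. Ccl2, Ccl7 and Ccl12 are monocyte chemoattractant proteins that act on CCR2, the receptor by which classical monocytes leave the bone marrow and enter tumors, and Ccl8 belongs to the same family and in the mouse is known as a ligand of CCR8. Ccl3 and Ccl4 are the macrophage inflammatory proteins, and Ccl3 acts on CCR1. Ccl6 and Ccl9 are rodent CCR1 ligands made by macrophages, osteoclasts and other myeloid cells, and Ccl24 (eotaxin-2) attracts eosinophils through CCR3 and is a marker of alternatively activated macrophages.

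The genes of 8 members lie on chromosome 11, in the order Ccl2, Ccl7, Ccl12, Ccl8, Ccl9, Ccl6, Ccl3 and Ccl4, and Ccl24 lies on chromosome 5. No pair of the 9 genes overlaps. Of the 9 members, 5 had a promoter in the RefSeq table for GRCm38.p6. The promoters of 2 pairs that follow each other in the order along the chromosome are shown. Only the 9 genes were counted in that order. By the main measure, Ccl12 and Ccl8 went opposite ways in macrophage-like cells, although the sign of Ccl8 there reversed under some alternatives described below. Ccl9 and Ccl6 went the same way in all classes compared. Each sequence is the 250 bases before the annotated start, 5′ to 3′ on the strand of the gene. In the first pair, Ccl12 at chr11:82101595-82101844 (plus strand) and Ccl8 at chr11:82114935-82115184 (plus strand), capitals mark the TATAAA match and the match to the core of PU.1, a factor that defines the myeloid lineage (GAGGAA, or TTCCTC where it lies on the other strand).
Ccl12: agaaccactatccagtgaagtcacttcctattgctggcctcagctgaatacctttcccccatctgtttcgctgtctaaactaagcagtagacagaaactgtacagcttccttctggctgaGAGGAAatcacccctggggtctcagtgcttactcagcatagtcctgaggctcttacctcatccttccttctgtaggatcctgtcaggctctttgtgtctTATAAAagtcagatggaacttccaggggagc
Ccl8: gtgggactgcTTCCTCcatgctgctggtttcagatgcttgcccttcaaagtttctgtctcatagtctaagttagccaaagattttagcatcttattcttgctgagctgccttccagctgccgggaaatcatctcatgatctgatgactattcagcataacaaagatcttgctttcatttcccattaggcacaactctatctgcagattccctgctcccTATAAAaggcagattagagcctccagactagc
In the second pair, Ccl9 at chr11:83578637-83578886 (minus strand) and Ccl6 at chr11:83593088-83593337 (minus strand), capitals mark the longest run of bases that the pair shares.
Ccl9: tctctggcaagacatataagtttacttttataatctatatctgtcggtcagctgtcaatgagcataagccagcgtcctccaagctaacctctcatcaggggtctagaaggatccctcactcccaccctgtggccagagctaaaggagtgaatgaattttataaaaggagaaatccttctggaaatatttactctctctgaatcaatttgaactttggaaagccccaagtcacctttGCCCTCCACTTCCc
Ccl6: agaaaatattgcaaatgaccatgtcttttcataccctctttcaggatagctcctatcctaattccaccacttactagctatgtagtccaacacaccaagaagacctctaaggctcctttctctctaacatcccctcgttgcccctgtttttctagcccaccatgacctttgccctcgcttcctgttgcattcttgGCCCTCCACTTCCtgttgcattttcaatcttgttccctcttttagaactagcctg
The shared run had 13 bases and began 14 bases before the start of Ccl9 and 55 bases before that of Ccl6. Among the 10 pairs of the 5 promoters the longest shared run ranged from 7 to 13 bases, so Ccl9 and Ccl6 held the longest. TATAAA lay 31 bases before the start in Ccl12 and 32 in Ccl8, and it was also found in Ccl9, against 12.4% of all 32851 promoters in the table. GAGGAA was found in Ccl8, Ccl12 and Ccl3, against 23.3% of all promoters. Of the other motifs searched on both strands, TGANTCA (AP-1, 6.75% of all promoters) was found in Ccl9 alone, and TTCNNNGAA (STAT, 7.02%) and TTGCNNAA (C/EBP, 9.56%) in none of the 5. The matches overlapped once, where TATAAA and its reverse complement share bases in Ccl9. A match states only that these letters are in the window.

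The control IgG library held 8557 cells (median 5526 UMIs per cell) and the anti-CD3L1 library 11269 (median 8267), and 26 barcodes occurred in both. Cells were put into classes by marker genes that exclude all 9 chemokines. Of the control IgG cells, 5867 were neutrophil-like, 1379 monocyte-like, 526 macrophage-like and 160 NK-like. Of the anti-CD3L1 cells, 588 were neutrophil-like, 2903 monocyte-like, 3875 macrophage-like and 949 NK-like. No marker class was assigned to 484 and 1786 cells. The defining markers of the named classes led their own class (C1qa, C1qb and C1qc in macrophage-like, Vcan and Ly6c2 in monocyte-like, S100a9 and Retnlg in neutrophil-like cells). Cells were assigned by these same markers, so their lead is no separate support for the classes. Levels are UMIs of a gene per 1000000 UMIs of the class (CPM). All are compared within a gene, between classes or libraries. Genes that a class does not make still give some UMIs, because free RNA from broken cells is captured in every droplet. NK-like cells served as the measure of this background, except for Ccl3 and Ccl4, which NK cells make.

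Within the control IgG library the 9 genes fell into 3 patterns by class. Ccl2, Ccl7, Ccl8 and Ccl12 were highest in macrophage-like cells. Ccl3 and Ccl4 were highest in neutrophil-like cells, and Ccl6, Ccl9 and Ccl24 were highest in monocyte-like cells among the 4 classes of at least 50 cells.

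The monocyte chemoattractants Ccl2, Ccl7 and Ccl12 shared 1 order of classes in the control IgG library. Ccl2 measured 330.0 CPM in macrophage-like cells (317 to 343), 230.0 in monocyte-like cells (223 to 237), 9.21 in neutrophil-like cells and 5.14 in NK-like cells, and the last pair did not differ beyond counting error. Ccl7 measured 425 CPM in macrophage-like cells against 71.3 in monocyte-like cells and 5.91 in neutrophil-like cells. Ccl12 measured 276 CPM in macrophage-like cells, 53.2 in monocyte-like cells and 2.26 in neutrophil-like cells, with 0 UMIs in NK-like cells, where 3 UMIs would give 1.54 CPM. The step from macrophage-like to monocyte-like cells was thus smaller for Ccl2 than for Ccl7 and Ccl12. Monocyte-like cells, being more numerous, held 55.2% of all Ccl2 UMIs and macrophage-like cells 33.9%, whereas macrophage-like cells held 65.4% of the Ccl7 UMIs and 64.3% of the Ccl12 UMIs.

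Ccl8 was the most restricted of the 9. In the control IgG library it measured 693 CPM in macrophage-like cells (674 to 712) and 4.95 and 4.96 CPM in monocyte-like and neutrophil-like cells, which did not differ from each other. Macrophage-like cells held 94.8% of its UMIs, although they were 6.15% of the cells. A small group of macrophage-like cells carried it. With every cell thinned to 1000 UMIs, 14.0% of macrophage-like cells had a Ccl8 UMI (11.1 to 17.2%). The 10% of macrophage-like cells with the most Ccl8 held 90.6% of the class's Ccl8 UMIs, up to 423 UMIs in 1 cell.

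Ccl3 and Ccl4 were highest in control IgG neutrophil-like cells. Ccl3 measured 4603 CPM there (4580 to 4626), 604 in macrophage-like, 438 in monocyte-like and 113 in NK-like cells. Ccl4 measured 3219 CPM in neutrophil-like, 2736 in macrophage-like, 1165 in monocyte-like and 305 in NK-like cells. All neighbours in both orders lay apart beyond counting error, but the step from neutrophil-like to macrophage-like cells was steep for Ccl3 and shallow for Ccl4. Ccl3 was found in most neutrophil-like cells (76.9% after thinning, 75.8 to 78.0%), unlike Ccl8 in macrophages. Among the neutrophils it was uneven, and a cluster of 1383 control IgG cells led by F3 and Nos2 reached 8666 CPM of Ccl3 and 6627 CPM of Ccl4. Neutrophil-like cells held 90.4% of all Ccl3 UMIs and 70.3% of all Ccl4 UMIs in that library.

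Ccl6, Ccl9 and Ccl24 were low in the control IgG library. Ccl6 measured 143 CPM in monocyte-like, 115 in neutrophil-like and 90.2 in macrophage-like cells. Ccl9 measured 141 CPM in monocyte-like and 123 in macrophage-like cells, and its 8.85 CPM in neutrophil-like cells did not differ from the 8.22 in NK-like cells. Ccl24 measured 17.6 CPM in monocyte-like and 9.29 in macrophage-like cells, from 305 and 69 UMIs. Ccl6 was thus the only 1 of the 3 with a clear level in control neutrophil-like cells. The 42 osteoclast-like cells of this library, defined by Ctsk and Acp5, were too few to be ranked, but they held 14.7% of all Ccl9 UMIs at 528 CPM.

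**Figure D1:**
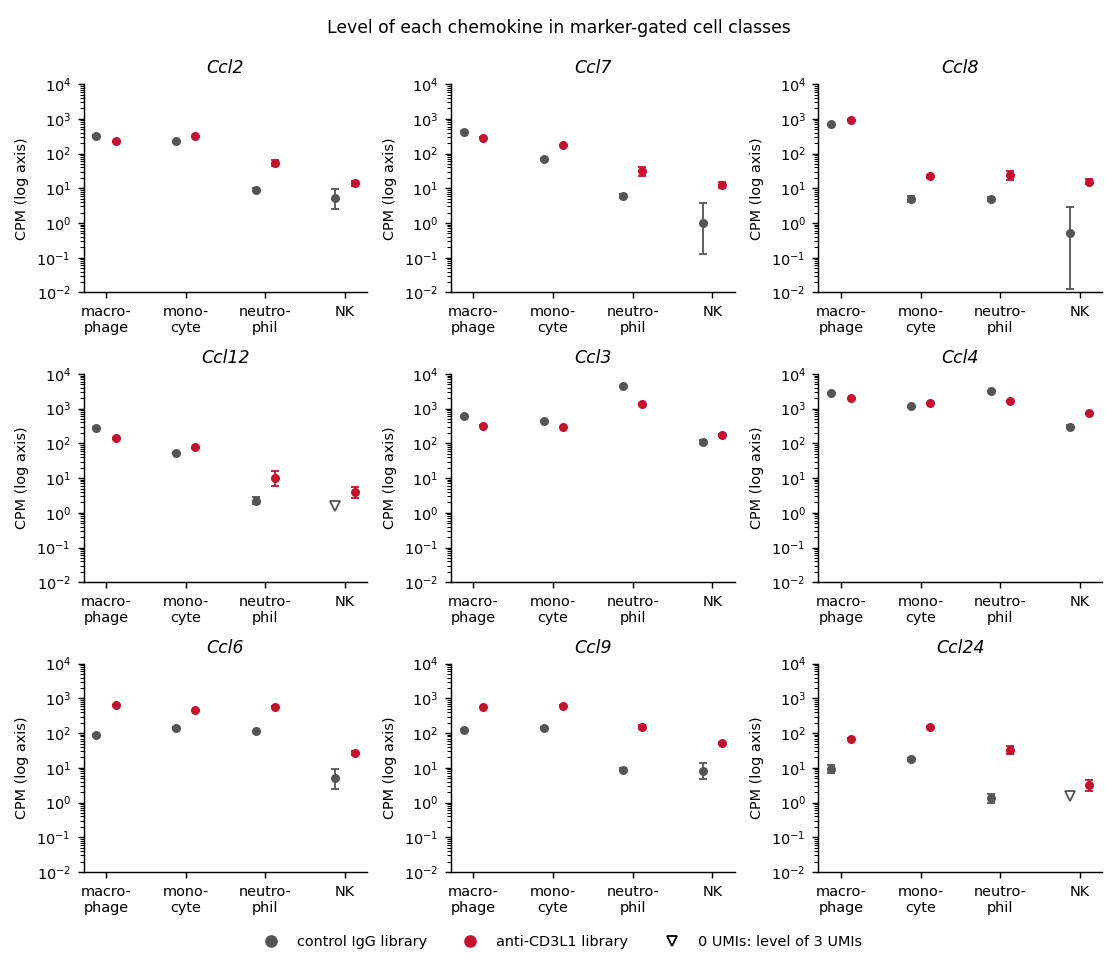
Level of each chemokine in CPM on a log axis (UMIs of the gene per 1000000 UMIs of the class) in macrophage-like, monocyte-like, neutrophil-like and NK-like cells. Grey points are the control IgG library, red points the anti-CD3L1 library, bars are exact Poisson 95% intervals, and an open triangle marks 0 UMIs at the level that 3 UMIs would give. In macrophage-like, monocyte-like and neutrophil-like cells Ccl6, Ccl9 and Ccl24 are higher in anti-CD3L1, whereas Ccl3 is lower. Ccl6 and Ccl9 are also higher in NK-like cells, the measure of background.

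Between the libraries, Ccl6, Ccl9 and Ccl24 were higher after anti-CD3L1 in all 3 main classes, and Ccl3 was lower in all 3. Ccl2, Ccl7 and Ccl12 went opposite ways in macrophage-like and monocyte-like cells. In macrophage-like cells 3 of the 9 (Ccl6, Ccl9 and Ccl24) were at least 2-fold higher and 0 at least 2-fold lower, against 2.20% and 2.45% of 7810 genes of at least 10 CPM. In monocyte-like cells 5 were at least 2-fold higher (Ccl7, Ccl8, Ccl6, Ccl9 and Ccl24) and 0 lower, against 4.20% and 2.30% of 7469 genes. In neutrophil-like cells 7 were at least 2-fold higher and 1 (Ccl3) lower, against 30.9% and 2.70% of 6401 genes, so higher values were common there. Of the 7, all but Ccl6 reached 10 CPM there in anti-CD3L1 only. So did Ccl24 in macrophage-like and Ccl8 in monocyte-like cells. These passed the limit through the library where they were high, so their count is no support for a difference. In NK-like cells 6 of the 7 that reached 10 CPM were at least 2-fold higher and 0 lower, against 3.59% and 1.60% of 8112 genes, and Ccl12 and Ccl24 were below 10 CPM in both libraries. Of the 6, all but Ccl4 reached 10 CPM in anti-CD3L1 only, so this count is no support for a difference either. The 10 macrophage markers summed to 141 CPM in the NK-like cells of control IgG and 525 CPM in those of anti-CD3L1, and the part of free RNA in the NK-like values was not tested. Ratios are given as log2 of the anti-CD3L1 level divided by the control IgG level. Their median was -0.44 for the 9 chemokines and 0.02 for all genes in macrophage-like cells, 1.30 and 0.19 in monocyte-like cells, and 2.33 and 0.62 in neutrophil-like cells. The values below are not shifted by these medians.

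Ccl2 and Ccl12 were lower after anti-CD3L1 in macrophage-like cells and higher in monocyte-like cells. In macrophage-like cells Ccl2 went from 330.0 CPM in control IgG to 224 in anti-CD3L1 (log2 ratio -0.56, interval -0.62 to -0.49). In monocyte-like cells it went from 230.0 to 314 CPM (log2 ratio 0.45, 0.39 to 0.50), so that the order of these classes turned. Ccl12 went from 276 to 139 CPM in macrophage-like cells (log2 ratio -0.99, -1.06 to -0.91), and 2.47% of the genes of the class had a lower ratio. In monocyte-like cells Ccl12 went from 53.2 to 76.1 CPM (log2 ratio 0.52, 0.40 to 0.63). As UMIs per cell, which are not corrected for the lower depth of the anti-CD3L1 cells, the monocyte ratios of Ccl2 and Ccl12 were -0.17 and -0.10 instead.

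Ccl7 had the same pair of signs, with a larger ratio in monocyte-like cells. It went from 425 to 289 CPM in macrophage-like cells (log2 ratio -0.56, -0.62 to -0.50) and from 71.3 to 176 CPM in monocyte-like cells (1.30, 1.21 to 1.39). After thinning to 1000 UMIs, 4.43% of monocyte-like cells had a Ccl7 UMI in control IgG and 9.40% in anti-CD3L1, and 21.0% and 15.5% of macrophage-like cells. The shares of NK-like cells with a Ccl7 UMI were 0% (up to 2.28%) and 0.85%. The monocytes of the libraries lay largely in different clusters, however. Clusters were drawn without a step that aligns the libraries. Treatment and technical differences between the libraries thus cannot be told apart in this split. The monocyte-like cluster led by Ly6c1, Vcan and Thbs1 had 1361 control IgG and 98 anti-CD3L1 cells, and the one led by Ly6c2 had 116 and 1402. Inside the 3 monocyte-like clusters of at least 50 cells in each library, the Ccl7 ratio was -1.48 and -0.46 in these and 0.50 in the one led by Fos and Ccr2, all below the 1.30 of the class. The value of -1.48 rests on 13 anti-CD3L1 UMIs (-2.39 to -0.69). Among classes of at least 50 cells, Ccl7 was highest in macrophage-like cells in both libraries.

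Ccl8 went from 693 to 953 CPM in macrophage-like cells (log2 ratio 0.46, 0.42 to 0.50), with 5145 and 37140 UMIs behind the values, but the ratio was -0.03 as UMIs per cell and -0.10 over macrophage-like clusters in place of marker classes. The thinned share of macrophage-like cells with Ccl8 was 14.0% (11.1 to 17.2%) in control IgG and 21.8% (20.5 to 23.1%) in anti-CD3L1. The top 10% of the cells held 82.7% of the UMIs after anti-CD3L1, less than the 90.6% in control IgG. More macrophage-like cells thus carried Ccl8 in the anti-CD3L1 library. In monocyte-like cells it went from 4.95 to 22.3 CPM (log2 ratio 2.17, 1.84 to 2.51), with 15.3 CPM in the NK-like cells of anti-CD3L1. By CPM the monocyte-like level of anti-CD3L1 was 1.45 times the NK-like one (1.20 to 1.76), apart beyond counting error. The thinned share of 1.73% of monocyte-like cells (1.28 to 2.27%) had an interval that included that of NK-like cells (1.69%), so the share does not tell Ccl8 in monocyte-like cells from background. Ccl8 remained a macrophage transcript, with 95.8% of its UMIs in macrophage-like cells after anti-CD3L1.

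Ccl3 was lower in macrophage-like, monocyte-like and neutrophil-like cells. In neutrophil-like cells it went from 4603 to 1377 CPM (log2 ratio -1.74, -1.80 to -1.68), and 1.12% of the genes of the class had a lower ratio. The thinned share of neutrophil-like cells with Ccl3 went from 76.9% to 46.4%. In macrophage-like cells Ccl3 went from 604 to 327 CPM (log2 ratio -0.89, -0.94 to -0.84). Monocyte-like cells had 438 CPM of Ccl3 in control IgG and 295 in anti-CD3L1 (-0.57, -0.62 to -0.53), although over monocyte-like clusters the ratio was 0.06. In those classes the share of cells with Ccl3 hardly moved, from 26.2% (22.5 to 30.2%) to 22.2% (20.9 to 23.5%) of macrophage-like and from 18.2% to 19.5% of monocyte-like cells. Such a share falls with the level per cell too, so fewer neutrophil-like carriers and less Ccl3 per carrier cannot be told apart. The highest macrophage-like cell had 217 Ccl3 UMIs in control IgG and 71 in anti-CD3L1. These counts are not corrected for depth, with medians of 13971.5 and 9733 UMIs per cell.

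Ccl4 followed Ccl3 in neutrophil-like cells but less in the others. It went from 3219 to 1628 CPM in neutrophil-like cells (log2 ratio -0.98, -1.04 to -0.93) and from 2736 to 2020.4 CPM in macrophage-like cells (-0.44, -0.46 to -0.42). The thinned share of macrophage-like cells with Ccl4 was 55.3% in both libraries. In monocyte-like cells Ccl4 went the other way, from 1165 to 1430.1 CPM (log2 ratio 0.30, 0.27 to 0.32), but the ratio was -0.32 as UMIs per cell. NK-like cells also had more, 305 CPM in control IgG and 734 in anti-CD3L1 (log2 ratio 1.27). Among classes of at least 50 cells, the highest Ccl4 was thus in neutrophil-like cells in control IgG and in macrophage-like cells in anti-CD3L1. The 10 mast or basophil-like cells, all from anti-CD3L1, had 275 Ccl4 UMIs (7468 CPM, 6611 to 8405).

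Ccl6 and Ccl9 were higher after anti-CD3L1 in macrophage-like, monocyte-like and neutrophil-like cells. They were also higher in NK-like cells, the measure of background (Ccl6 5.14 and 26.4 CPM, Ccl9 8.22 and 52.0 CPM). Droplets of 10 to 100 UMIs were taken as empty. There Ccl6 measured 87.0 CPM in control IgG and 498 in anti-CD3L1, and Ccl9 108 and 625 CPM. In macrophage-like cells Ccl6 went from 90.2 to 649.8 CPM (log2 ratio 2.85, 2.74 to 2.96), above the ratio of 99.8% of the genes of the class. After thinning, 25 of 523 macrophage-like cells (4.78%, 3.12 to 6.98%) had a Ccl6 UMI in control IgG and 1154 of 3848 (28.5 to 31.5%) in anti-CD3L1. In monocyte-like cells Ccl6 went from 143 to 467 CPM (log2 ratio 1.71, 1.65 to 1.78), and in neutrophil-like cells from 115 to 577 CPM (2.33, 2.23 to 2.43). Ccl9 went from 123 to 569 CPM in macrophage-like cells (log2 ratio 2.21, 2.11 to 2.31) and from 141 to 617 CPM in monocyte-like cells (2.13, 2.07 to 2.19). The median monocyte-like cell had 0 Ccl9 UMIs in control IgG and 4 in anti-CD3L1, and the thinned share went from 12.4% to 39.7%. The top 10% of monocyte-like cells held 52.5% of the Ccl9 UMIs in control IgG and 34.3% in anti-CD3L1, and the top 10% of macrophage-like cells held 77.6% and 56.6% of the Ccl6 UMIs, a share that also falls as the UMIs per cell rise.

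Ccl24 had the largest ratio of the 9 in macrophage-like, monocyte-like and neutrophil-like cells, from low counts. It went from 9.29 to 69.3 CPM in macrophage-like cells (log2 ratio 2.90, 2.55 to 3.27) and from 17.6 to 153 CPM in monocyte-like cells (3.12, 2.96 to 3.30). The interval in macrophage-like cells includes the value of Ccl6. After thinning, Ccl24 was detected in fewer cells than Ccl6 and Ccl9 were. Its thinned share went from 0.96% to 3.85% of macrophage-like cells and from 1.53% to 9.05% of monocyte-like cells, against 0% (up to 2.28%) and 0.32% of NK-like cells, and 1 macrophage-like cell of the anti-CD3L1 library held 196 of the 2700 UMIs.

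**Figure D2:**
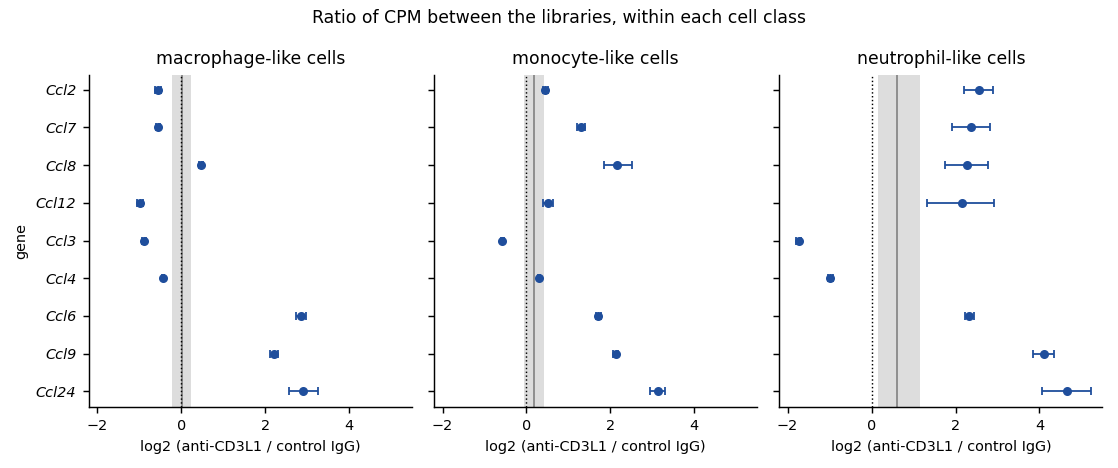
Log2 ratio of CPM, anti-CD3L1 over control IgG, for the 9 chemokines in macrophage-like, monocyte-like and neutrophil-like cells, with exact conditional binomial 95% intervals. The dotted line is no difference, the grey line the median of all genes of the class (0.02, 0.19 and 0.62) and the grey band runs from the first to the third quartile. Ccl6, Ccl9 and Ccl24 lie right of the band in all panels, Ccl3 left of it in all panels, Ccl2, Ccl7 and Ccl12 lie left of it in macrophage-like cells only, and Ccl4 in macrophage-like and neutrophil-like cells.

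Neutrophil-like cells of the anti-CD3L1 library also held more UMIs of macrophage genes, and this touches the 7 chemokines that were higher there. The 10 macrophage markers summed to 281 CPM in control IgG neutrophil-like cells and 1439 CPM in anti-CD3L1 ones, with none of the 10 at 0. Over the same cells Ccl2 went from 9.21 to 54.2 CPM, Ccl7 from 5.91 to 30.8, Ccl8 from 4.96 to 24.0, Ccl12 from 2.26 to 10.1, Ccl9 from 8.85 to 152 and Ccl24 from 1.34 to 33.5. All of these lay below the macrophage-like level of the same library. Neutrophil-like cells without a UMI of any of the 10 macrophage markers numbered 3541 in control IgG and 155 in anti-CD3L1. In these cells Ccl6 went from 119 to 540 CPM (log2 ratio 2.18, 1.96 to 2.40), Ccl3 from 4710 to 1536 CPM (-1.62, -1.74 to -1.49) and Ccl4 from 3203 to 1221 CPM (-1.39, -1.53 to -1.25). Ccl9 measured 4.28 and 41.5 CPM there, from 75 and 14 UMIs, and Ccl8 4.33 and 35.6 CPM, from 76 and 12 UMIs. Ccl8 was thus not lower in the selected anti-CD3L1 cells than in all anti-CD3L1 neutrophil-like cells (24.0 CPM). The part of macrophage RNA left after this selection was not tested. The intervals of Ccl2 (-0.13 to 3.22) and Ccl7 (-1.17 to 3.94) included 0, Ccl12 had 0 UMIs in anti-CD3L1, and Ccl24 had 1 and 2 UMIs (log2 ratio 6.70, 2.44 to 12.6). Neutrophil genes moved the other way in the remaining classes. The 10 neutrophil markers summed to 3835 CPM in control IgG and 249 CPM in anti-CD3L1 macrophage-like cells, and to 6454 and 1043 CPM in monocyte-like cells, beside the lower Ccl3 of both classes and the lower Ccl4 of the first. With free RNA subtracted, the log2 ratio in macrophage-like cells was -0.80 for Ccl3 and -0.46 for Ccl4. The 10 macrophage markers summed to 1626 and 3436 CPM in monocyte-like cells, beside the higher Ccl7, Ccl6, Ccl9 and Ccl24 there, and their part in these values was not tested.

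Clusters drawn without the 9 chemokines gave the same comparison among more similar cells. In 7 clusters that scored highest for macrophage or monocyte markers and had at least 50 cells in each library, 2 of them left unnamed for lack of leading markers, Ccl6 was higher in 7 of 7 (log2 ratio 1.29 to 3.58), Ccl9 in 7 of 7 (1.43 to 2.24) and Ccl24 in all 6 that had a value (2.38 to 3.67). Ccl8 was higher beyond counting error in 6 of 7 and lower in 0, and its ratios ranged from 0.35 to 4.02. The ratios of Ccl8 over the marker class and over the pooled macrophage-like clusters, 0.46 and -0.10, thus lay below those inside most single clusters. In a cluster with Fcrls, Cbr2, C1qa, C1qb and C1qc among its leading genes, 267 control IgG and 830 anti-CD3L1 cells, Ccl8 went from 1124 to 2137 CPM, and in the largest macrophage-like cluster, 116 and 2526 cells, from 34.7 to 315 CPM. Of this pair, the control IgG library had more cells in the first cluster and the anti-CD3L1 library in the second, where Ccl8 was lower.

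The monocyte chemoattractants showed no single direction inside clusters. Ccl2 was higher in 2 and lower in 4 of the 7 clusters (log2 ratio -0.74 to 0.61), Ccl7 higher in 1 and lower in 3 (-1.48 to 0.50), and Ccl12 higher in 2 and lower in 3 (-2.28 to 2.42). The lower ends for Ccl7 and Ccl12 come from the cluster led by Ly6c1, with 98 anti-CD3L1 cells. They rest on 13 and 3 anti-CD3L1 UMIs (intervals -2.39 to -0.69 and -4.57 to -0.73). Ccl4 was higher in 3 and lower in 4 (-0.20 to 1.74), and Ccl3 higher in 1 and lower in 4 (-0.72 to 0.56). The upper ends for Ccl12, Ccl4, Ccl3 and Ccl8 come from an unnamed cluster of shallow cells (median 1056 UMIs, led by Gm26917 and Hexim1, with 1 control IgG UMI of Ccl12 and 6 of Ccl8). Without it, Ccl12 reached at most 1.63, Ccl8 3.18, Ccl4 0.62 and Ccl3 0.03, and Ccl3 was higher in 0 of 6 clusters and lower in 4. In 4 clusters of that size that scored highest for neutrophil markers, 2 of them unnamed, Ccl3 was lower in 4 of 4 (-2.37 to -0.76), Ccl4 lower in 4 of 4 (-1.11 to -0.30), and Ccl6 higher in 4 of 4 (1.74 to 2.96). One of the unnamed clusters had the monocyte genes Vcan, Thbs1 and Ly6c1 among its leading genes, and without it the counts were 3 of 3 with the same ranges.

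**Figure D3:**
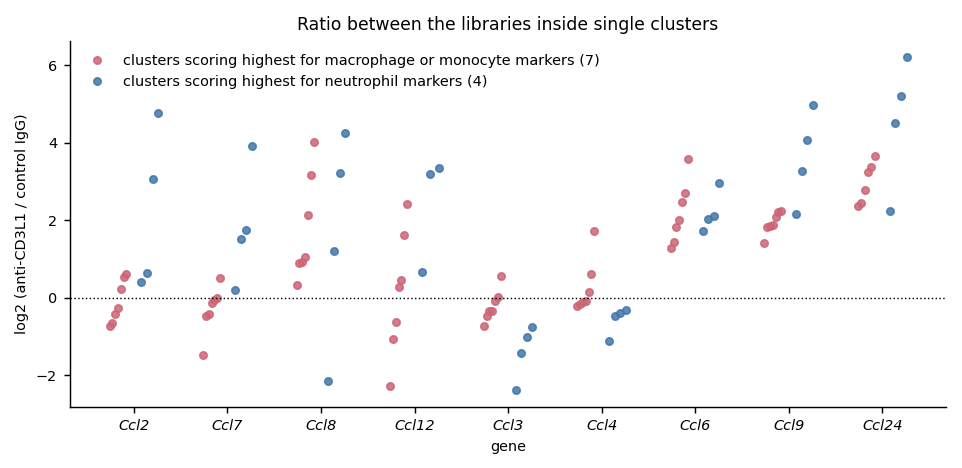
Log2 ratio of CPM, anti-CD3L1 over control IgG, inside single clusters of at least 50 cells in each library. Each point is a cluster, red for the 7 that scored highest for macrophage or monocyte markers and blue for the 4 that scored highest for neutrophil markers, and points of a gene are spread sideways by rank only. All points of Ccl6, Ccl9 and Ccl24 lie above 0 and all blue points of Ccl3 and Ccl4 below it, whereas the red points of Ccl2, Ccl7, Ccl12, Ccl3 and Ccl4 lie on both sides.

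Subsets of the macrophages differed in the monocyte chemoattractants. Folr2, a folate receptor of tissue-resident macrophages, had a UMI in 191 of the 526 control IgG and 1656 of the 3875 anti-CD3L1 macrophage-like cells. Ccl8 was higher in cells with Folr2 than without in both libraries, at 1267 against 302 CPM in control IgG and 1574 against 392 CPM in anti-CD3L1. In this split Ccl2 was lower in anti-CD3L1 in cells without Folr2, from 386 to 167 CPM (log2 ratio -1.21, -1.29 to -1.12). In cells with Folr2 it went from 248 to 287 CPM (0.21, 0.10 to 0.33). The split rests on 1 UMI and so depends on depth, with medians of 13971.5 UMIs in control IgG and 9733 in anti-CD3L1. Inside the macrophage-like cluster with Fcrls and Cbr2 and inside the largest one, Ccl2 was lower as well (-0.66 and -0.41). Ccl7 (-1.03 without and -0.18 with Folr2), Ccl12 (-1.37 and -0.60) and Ccl4 (-0.65 and -0.09) were also lower by more in cells without Folr2. Ccl6 and Ccl9 were higher in both, with log2 ratios of 3.10 and 2.49 without Folr2 and 2.58 and 1.90 with it. No test of the difference between the subsets was possible with 1 library per group.

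A cluster led by the interferon-induced genes Ifit2, Ifit3, Cmpk2 and Rsad2, with 154 control IgG and 634 anti-CD3L1 cells, had high levels of Ccl2, Ccl7 and Ccl12 in both libraries. This cluster was left unnamed and scored highest for monocyte markers. Ccl12 measured 722 CPM there in control IgG and 346 in anti-CD3L1. Over all monocyte-like cells Ccl12 was at 53.2 and 76.1 CPM, and over all macrophage-like cells at 276 and 139 CPM. Ccl2 measured 725 and 435 CPM in the cluster. Ccl7 measured 486 and 472 CPM there, which did not differ beyond counting error. A cluster led by Atp6v0d2, Mmp12 and Gpnmb was nearly all from the anti-CD3L1 library, with 513 of its cells against 11, and it held 1376 CPM of Ccl8 and 1210.2 CPM of Ccl6.

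By marker classes, though not by clusters, osteoclast-like cells had the highest Ccl6 and Ccl9 among classes of at least 50 cells in anti-CD3L1. The 67 cells there measured 1134 CPM of Ccl6 (1070.3 to 1200) and 1135 CPM of Ccl9 (1071 to 1201), above macrophage-like cells at 649.8 and monocyte-like cells at 617 CPM, respectively. The 10 mast or basophil-like cells measured 1086 CPM of Ccl6 (776 to 1479) and 1222 CPM of Ccl9 from 45 UMIs, and both intervals included the osteoclast-like value. In the 42 osteoclast-like cells of control IgG Ccl6 had 10 UMIs (7.35 CPM), whereas Ccl9 was already at 528 CPM. With clusters in place of marker classes, the highest class was neutrophil-like for Ccl6 and monocyte-like for Ccl9 in anti-CD3L1, and the highest class was the same in the other 16 of 18 comparisons of gene and library. The osteoclast-like cluster had 35 control IgG and 79 anti-CD3L1 cells. Its Ccl6 measured 9.20 CPM in control IgG and 217 in anti-CD3L1, and its Ccl9 555 and 320 CPM. The level in osteoclast-like cells thus depended on how they were defined. The 30 fibroblast-like cells, all from the anti-CD3L1 library, measured 1065 CPM of Ccl2 (982 to 1152), 741 of Ccl7 and 283 of Ccl8, but 3 UMIs of Ccl12 (5.18 CPM, 1.07 to 15.2) and 0 of Ccl3. Their Ccl2 lay above that of monocyte-like cells (314 CPM), and they held 3.18% of the Ccl2 UMIs of the library.

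Over all cells of a library, both the make-up of the cells and the level in each class set the amount of a chemokine. From control IgG to anti-CD3L1 the all-cell level of Ccl3 went from 2547 to 281 CPM (log2 ratio -3.18), and Ccl4 from 2291 to 1464 CPM (-0.65). Ccl8 went from 80.7 to 396 CPM (2.30), Ccl7 from 71.7 to 181 (1.33), Ccl2 from 108 to 198 (0.88) and Ccl12 from 47.4 to 81.3 (0.78). Ccl6 went from 107 to 475 CPM (2.15), Ccl9 from 72.8 to 485 (2.73) and Ccl24 from 6.42 to 85.1 (3.73). Over all cells, then, Ccl2, Ccl7 and Ccl12 were higher in anti-CD3L1 although they were lower in its macrophage-like cells. In bulk values like these, fewer cells of a type and less RNA per cell cannot be told apart. Here the shares of the main marker classes can be held fixed, but not the mix of the smaller classes or of clusters inside a class.

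For this step macrophage-like, monocyte-like, neutrophil-like, NK-like and unassigned cells were kept apart, and all other named classes were joined into 1 group. That group held 3.78% of the UMIs in control IgG and 13.6% in anti-CD3L1. First, the control IgG levels were kept and only the shares of UMIs were set to those of anti-CD3L1. The log2 ratio was then 0.90 for Ccl2, 1.43 for Ccl7, 1.42 for Ccl12 and 1.78 for Ccl8. With the shares kept and only the levels set to those of anti-CD3L1, it was 0.44 for Ccl2, 0.51 for Ccl7, -0.13 for Ccl12 and 0.65 for Ccl8. The ratio by shares was thus larger than that by levels for all 4 monocyte chemoattractant family members. For Ccl2, Ccl7 and Ccl12 it also exceeded the observed ratio (0.88, 1.33 and 0.78), so it is not a part of it. For Ccl3 both were lower, -2.21 by shares and -1.63 by levels, and for Ccl4 they were -0.53 and -0.59. Neutrophil-like cells held 90.4% of the Ccl3 UMIs in control IgG and 8.94% in anti-CD3L1, where macrophage-like cells held 46.2%. For Ccl6, Ccl9 and Ccl24 the ratio by levels was the larger. The ratios by levels were 2.29, 2.25 and 3.53, and those by shares -0.45, 0.91 and 0.38. Osteoclast-like cells, part of the joined group, held 719 of the 4899 control IgG Ccl9 UMIs. Their total went from 1361021 UMIs to 1058597 while the share of the group rose, so 0.91 is not a ratio by single classes. The ratios by shares and by levels need not sum to the observed one, since both can change together.

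**Figure D4:**
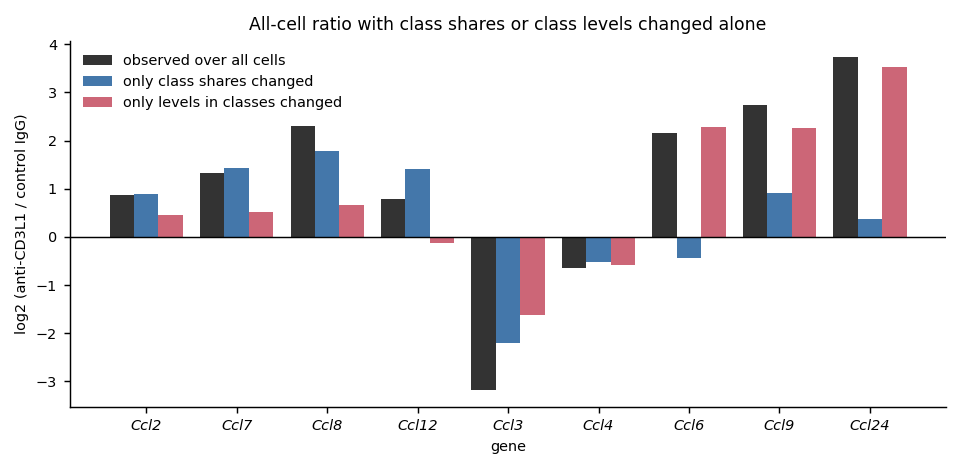
Log2 ratio over all cells, anti-CD3L1 over control IgG, as observed (black), with the control IgG level in each class and the anti-CD3L1 share of UMIs in each class (blue), and with the anti-CD3L1 levels and the control IgG shares (red). Named classes other than macrophage-like, monocyte-like, neutrophil-like and NK-like are joined into 1 group. The blue bar is the taller for Ccl2, Ccl7, Ccl8, Ccl12 and Ccl3 and the red bar for Ccl6, Ccl9 and Ccl24, and for Ccl4 they are -0.53 and -0.59.

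**Figure D5:**
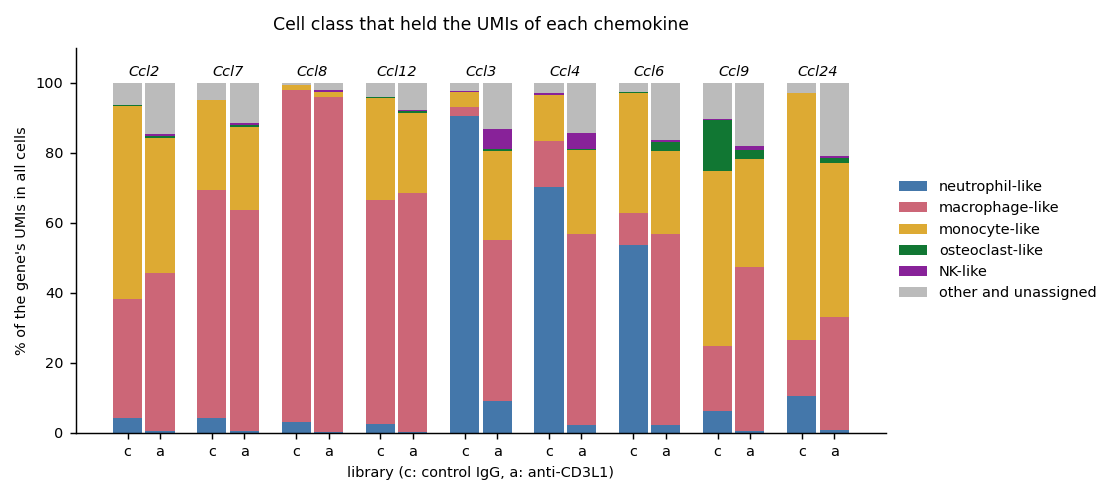
Share of the UMIs of each chemokine that came from each cell class, in % of the UMIs in all cells of a library, with the control IgG library (c) left and the anti-CD3L1 library (a) right. Neutrophil-like cells hold 90.4% of Ccl3 and 70.3% of Ccl4 UMIs in control IgG and 8.94% and 2.03% in anti-CD3L1, whereas macrophage-like cells hold 94.8% and 95.8% of the Ccl8 UMIs.

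Some chemokines of a family were detected more often in cells that had another of the family, though not in every class and library. At 1000 UMIs per cell, Ccl7 was detected in 42.9% of macrophage-like cells with Ccl2 and 16.0% of those without in control IgG, and in 40.2% and 11.1% in anti-CD3L1. Ccl4 was detected in 84.7% of macrophage-like cells with Ccl3 and 44.8% of those without in control IgG, and in 78.0% and 48.8% in anti-CD3L1. In neutrophil-like cells the same shares were 58.4% and 27.9% in control IgG, and 56.9% and 32.0% in anti-CD3L1. Ccl9 was detected in 51.2% of anti-CD3L1 macrophage-like cells with Ccl6 and in 27.1% of those without. In monocyte-like cells these shares were 50.2% and 35.3% in anti-CD3L1. In control IgG they were 17.5% (11.6 to 24.7%) and 11.8% (10.1 to 13.8%) of monocyte-like cells, and 0.60% and 0.59% of neutrophil-like cells. Within the Ccl2 family, Ccl8 was detected in 24.4% of anti-CD3L1 macrophage-like cells with Ccl2 (20.9 to 28.1%) and 21.3% of those without (19.9 to 22.8%). With and without Ccl7, Ccl8 was detected in 31.9% and 19.9% of macrophage-like cells in anti-CD3L1, and in 12.7% and 14.3% in control IgG. Pairs from different families varied. Ccl9 was detected in 33.6% of anti-CD3L1 macrophage-like cells with Ccl4 (31.6 to 35.7%) and in 35.1% of those without (32.9 to 37.4%). Ccl2 was detected in 18.8% of these cells with Ccl4 and 10.4% without, and in control IgG in 24.6% and 11.5%. Ccl6 was detected in 36.1% of anti-CD3L1 macrophage-like cells with Ccl2 and 28.9% without. These shares treat cells of 1 library as independent draws, which holds for counting error only.

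Over the 15 sums of a class in a library with at least 50 cells, the pattern of each chemokine was compared with 5962 genes by Pearson's r of log2(CPM + 10), as a description over sums that share 2 libraries. Ccl8 was most like C1qc (r = 0.95), C1qa (0.94) and Hpgds (0.94). C1qc and C1qa are complement genes and are among the markers that define the macrophage-like class. Their likeness is thus no separate support for Ccl8 as a macrophage transcript. Ccl12 was most like C3ar1, the receptor of complement C3a (0.96), and Ccl2 most like Slc7a8 (0.94), which was also second for Ccl7 (0.93). Among genes outside the 9, Ccl9 and Ccl24 had the same nearest gene, Ank2 (0.95 and 0.92). Ccl24 was closer to Ccl9 (0.94) than to Ank2. Ccl4 was closer to Ccl3 (0.88) than to any gene outside the 9, of which Noct was nearest (0.87). Ccl6 was most like Csf2ra, a subunit of the GM-CSF receptor (0.89), and Ccl3 most like N4bp1 (0.94). Ccl12 was also close to Ccl7 (0.92) and less close to Ccl8 (0.77), the members before and after it in the order along the chromosome.

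Receptors for some of these ligands were read in the same classes. Of 10 CC receptors, 5 reached 10 CPM in macrophage-like cells, of which 1 was at least 2-fold higher in anti-CD3L1 (Ccr9, from 3.90 to 11.2 CPM, named after its values were seen) and 0 lower, against 2.20% and 2.45% of all genes. Ccr9 reached 10 CPM in anti-CD3L1 only, so its count is no support for a difference. Ccr1, the receptor of Ccl3, Ccl6 and Ccl9, went from 113 to 96.0 CPM in macrophage-like cells, from 218 to 162 in monocyte-like cells (log2 ratio -0.43) and from 432 to 411 in neutrophil-like cells, where the interval (-0.18 to 0.03) included 0. Ccr2, the receptor of Ccl2, Ccl7 and Ccl12, went from 338 to 430 CPM in monocyte-like cells (log2 ratio 0.35), but it is one of the markers that define this class, and from 103 to 156 CPM in macrophage-like cells (0.59). Ccr3, the receptor of Ccl24, was at 2.56 and 2.44 CPM in macrophage-like cells and did not reach 10 CPM in neutrophil-like or monocyte-like cells either, and Ccr8, the receptor of Ccl8, had at most 4 UMIs in macrophage-like, monocyte-like or neutrophil-like cells of either library. Ccr8 had 86 UMIs (74.1 CPM) in the innate lymphoid-like cells of anti-CD3L1. Ccrl2, an atypical receptor known to bind chemerin, went from 1123 to 623 CPM in monocyte-like cells (log2 ratio -0.85) and from 840.0 to 706 in macrophage-like cells (-0.25).

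Of 9 other CC chemokines, 2 reached 10 CPM in macrophage-like cells (Ccl5 and Ccl25), 1 in monocyte-like cells (Ccl5) and 2 in neutrophil-like cells (Ccl5 and Ccl17). In macrophage-like and monocyte-like cells 0 of these were at least 2-fold apart between the libraries, and in neutrophil-like cells both were at least 2-fold higher in anti-CD3L1, where 30.9% of all genes were and where Ccl17 reached 10 CPM in anti-CD3L1 only (4 and 37 UMIs). Ccl5, a chemokine of lymphocytes and myeloid cells, went from 188 to 371 CPM in macrophage-like cells (log2 ratio 0.98) and from 347 to 420.4 CPM in monocyte-like cells (0.28). The ratios of Ccl6, Ccl9 and Ccl24 were larger than those of Ccl5 in both classes.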

How the data were processed

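CD45-positive cells of 143B xenografts were profiled with 10x Chromium, 1 library of 3 pooled tumors per group. The authors deposited raw UMI counts per gene and barcode, before any cell call. Per the labels' processing notes, Cell Ranger 7.1.0, Seurat 5.1.0 and the build GRCm39 were used. The reference used here is GRCm38, so only the order of the genes and the promoters (RefSeq, GRCm38.p6) were taken from it. The authors' table of macrophage fold changes and p-values was not used.

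Barcodes with at least 500 UMIs, over 200 and under 6000 genes and under 5% mitochondrial UMIs were kept, which gave 8557 and 11269 cells from libraries of 74850604 and 108246719 UMIs. A cell joined the class with the highest scaled marker score if at least 3 markers were detected and the score was at least 0.3. Within 0.05 of this limit lay 57 and 289 macrophage-like, 77 and 341 monocyte-like and 62 and 20 neutrophil-like cells (control IgG and anti-CD3L1). Doublets were kept, since Scrublet's own limit called 0 cells in each library. UMIs were summed per class and library. Intervals are exact Poisson (levels), exact conditional binomial (ratios) and exact binomial (shares). Thinning to 1000 UMIs left out at most 140 cells of a class. Clusters were drawn with scanpy 1.11.5 (2000 variable genes, 30 components, resolution 1.0) without the 9 chemokines and without a step that aligns the libraries. Other steps used Python 3.11.15, numpy 2.4.6, scipy 1.17.1 and pandas 2.3.3, and the ratio and its interval were checked on simulated counts.

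All 9 chemokines are named. The other CC chemokines and receptors come from lists, of which 1 gene is not reported here, and the 3 genes most like each chemokine were found by correlation. The members and all lists were chosen with earlier results of these data known, and the comparison inside clusters, with and without a shallow cluster and one led by monocyte genes, and that of neutrophil-like cells without macrophage marker UMIs were added after the values were seen.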

Additional observations from a re-analysis of the deposited data

Results flagged for a closer look

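In 4 of the 9 chemokines the ratio between the libraries had opposite signs in macrophage-like and monocyte-like cells, with both intervals clear of 0. The share of all genes that meet this rule was not counted, so whether 4 of 9 is unusual cannot be told. The log2 ratio, anti-CD3L1 over control IgG, of Ccl2 was -0.56 in macrophage-like and 0.45 in monocyte-like cells, and that of Ccl7 was -0.56 and 1.30. For Ccl12 the values were -0.99 and 0.52, and for Ccl4 they were -0.44 and 0.30. With 1 library per group the difference between the classes was not tested. Relative to the median ratio of all genes, which was 0.02 in macrophage-like and 0.19 in monocyte-like cells, the signs stayed opposite for all 4. As UMIs per cell, only Ccl7 kept opposite signs. Inside the monocyte-like clusters led by Ly6c1, by Ly6c2 and by Fos, however, the Ccl7 ratio was -1.48, -0.46 and 0.50. The value of -1.48 rests on 13 anti-CD3L1 UMIs.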

How the results depend on the processing

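No paired analysis was possible because each group has 1 library and no replicate numbers. The numbers of chemokines at least 2-fold higher (3 in macrophage-like, 5 in monocyte-like and 7 in neutrophil-like cells) stayed within 1.5 times under every alternative run. They include members that reached 10 CPM in anti-CD3L1 only, as named above. The numbers at least 2-fold lower moved. In macrophage-like cells 0 became 1 with clusters in place of marker classes, with a stricter gate, with median of ratios scaling, with free RNA subtracted and with the 1% of cells of most UMIs of the gene left out, and 4 as UMIs per cell. In monocyte-like cells 0 became 1 as UMIs per cell. In neutrophil-like cells 1 became 2 with clusters, with median of ratios scaling, as UMIs per cell, with free RNA subtracted, without the 1% of cells, and in cells with no UMI of the 10 macrophage markers, an alternative chosen after seeing the data.

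The log2 ratio reversed over clusters for Ccl8 in macrophage-like cells (-0.10) and Ccl3 in monocyte-like cells (0.056). As UMIs per cell it reversed for Ccl8 in macrophage-like cells (-0.029) and for Ccl2 (-0.17), Ccl12 (-0.10) and Ccl4 (-0.32) in monocyte-like cells, where the anti-CD3L1 cells had fewer UMIs (median 7858 against 12301). The cause of the other changes was not tested. Of the 27 ratios, 27 stayed within their interval with at least 1000 UMIs or at least 500 genes per barcode, 20 with the stricter gate and 16 without the cells of highest Scrublet score. Fewer stayed within it elsewhere, 11 with median of ratios scaling, 7 over clusters and 7 without the 1% of cells. As UMIs per cell 0 did, and with free RNA subtracted 18 did. The intervals cover counting only and do not cover these choices. Free RNA subtraction left 1 monocyte-like and 1 neutrophil-like ratio without a value. Variation between mice is unknown.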
